A study of Caenorhabditis elegans with 2 samples.

Results

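The nuclear genome of Caenorhabditis elegans holds 612 annotated transfer RNA (tRNA) genes, of which 336 lie on the 5 autosomes and 276 on X. The 336 autosomal genes were taken from the Ensembl annotation of assembly WBcel235, the same assembly as build ce11, and each was extended by 100 bp on both sides. A gene was called bound by EFL-1 if its extended span held the summit of a nuclear peak in the optimal list that the authors had thresholded by irreproducible discovery rate (IDR), a measure of how well peak ranks agree between replicates. That list was derived from both replicates together and held 2179 nuclear peaks.

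The peaks came from chromatin immunoprecipitation with sequencing (ChIP-seq) of strain YL479, whose EFL-1 is fused at its C-terminus to GFP-FLAG, using young adult hermaphrodites taken whole. Chromatin was sonicated, and the sample descriptions name an anti-GFP antibody where the antibody label has efl-1. Both biological replicates (n = 2) form 1 group, with no other genotype or treatment, and the labels name no promoter for the transgene. All cell types of the animal were mixed in each sample, and no input or control library was analysed here. Depth is unknown, because the lists give peaks and no reads. Each peak carries a signal value from the authors, whose scale is not stated, and it is used only to describe peaks and to order them inside a list.

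tRNA genes are short and are transcribed by RNA polymerase III. Their promoter lies inside the gene, in an A box and a B box that are bound by the factor TFIIIC, which then places TFIIIB just upstream of the start, and transcription ends at a run of T. Many tRNA genes exist in several copies of identical sequence, scattered over the chromosomes. EFL-1 belongs to the E2F family of transcription factors. It acts with DPL-1 and with the retinoblastoma relative LIN-35 and is known for the control of cell cycle and germline genes transcribed by RNA polymerase II.

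To show what the members look like, the gene sequences of 6 families of identical copies that held both bound and unbound genes are given from the RefSeq copy of assembly WBcel235 (ce11), each read 5′ to 3′ on the gene strand from 1 named copy. Capitals mark the match to GTTCNANNC, the B box string, where N is any base.
T23F1.t2 (tRNA-Pro, chrV:15465225-15465296, minus strand): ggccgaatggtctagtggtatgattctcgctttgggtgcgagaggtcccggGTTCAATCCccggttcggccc
K04C2.t3 (tRNA-Lys, chrIII:6887728-6887800, minus strand): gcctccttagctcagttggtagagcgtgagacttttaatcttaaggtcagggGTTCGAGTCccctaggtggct
C16C8.t2 (tRNA-Thr, chrII:3439219-3439290, minus strand): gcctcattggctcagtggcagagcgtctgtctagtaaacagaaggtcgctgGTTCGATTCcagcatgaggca
ZK622.t1 (tRNA-Ala, chrII:5292332-5292403, plus strand): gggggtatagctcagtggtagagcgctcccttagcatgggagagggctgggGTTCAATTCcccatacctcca
F02E11.t1 (tRNA-Ser, chrII:3267989-3268070, plus strand): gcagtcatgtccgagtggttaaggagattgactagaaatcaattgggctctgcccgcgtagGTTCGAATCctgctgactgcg
C13B4.t1 (tRNA-Gln, chrII:14474842-14474913, minus strand): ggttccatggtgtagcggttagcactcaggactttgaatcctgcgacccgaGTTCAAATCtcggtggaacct
Of these, the lysine family had 5 of 9 autosomal copies bound, the threonine family 7 of 8 and the glutamine family 1 of 6. Among the 2179 strongest candidates of replicate 1 the counts were 5, 5 and 1, and of replicate 2 they were 4, 6 and 4.

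The strongest single-copy gene and a pair of identical lysine genes are shown with 50 bases before and 20 bases after the gene, because their flanks are what can tell copies apart. Capitals mark the tRNA gene itself.
F44A2.t1 (tRNA-Ala, chrV:9318152-9318293, plus strand): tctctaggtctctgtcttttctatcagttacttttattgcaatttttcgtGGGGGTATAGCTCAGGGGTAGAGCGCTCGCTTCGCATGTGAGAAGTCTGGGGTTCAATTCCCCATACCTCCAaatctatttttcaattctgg
K04C2.t3 (tRNA-Lys, chrIII:6887708-6887850, minus strand): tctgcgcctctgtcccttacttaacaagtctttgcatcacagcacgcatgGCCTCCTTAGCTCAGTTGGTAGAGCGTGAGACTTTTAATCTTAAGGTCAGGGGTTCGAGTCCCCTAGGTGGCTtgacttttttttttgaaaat
W07G4.t1 (tRNA-Lys, chrV:13027008-13027150, minus strand): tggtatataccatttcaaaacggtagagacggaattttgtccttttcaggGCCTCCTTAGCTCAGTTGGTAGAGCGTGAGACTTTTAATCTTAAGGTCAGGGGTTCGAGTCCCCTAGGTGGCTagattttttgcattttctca
F44A2.t1 was the most strongly bound member, K04C2.t3 came next, and W07G4.t1, whose gene is identical to K04C2.t3, was unbound and held no pooled candidate. The F44A2.t1 gene differs at 6 of 72 positions from ZK622.t1 above, and at 12 of the 50 upstream positions W07G4.t1 has the same base as K04C2.t3.

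EFL-1 was bound at 163 of the 336 autosomal tRNA genes (48.5%, 95% Wilson interval 43.2 to 53.8%), through 153 peaks. By the same rule, 3.73% of all nuclear genes of any biotype were bound. Among other short RNA genes on autosomes, the share was 20.8% for snoRNA genes, which guide modification of other RNAs, and 7.14% for snRNA genes, which belong to the splicing machinery. A summit lay in 0.637% of autosomal tiles of 272 bp, the median extended length of a member. Intervals here and below cover counting error only, and genes that share a peak or a sequence are not independent.

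Each replicate alone gave a similar share. Among the 2179 strongest candidates of replicate 1, a summit lay at 145 members (43.2%, 38.0 to 48.5%), where tiles of the same length gave 0.642%. In replicate 2 it lay at 138 members (41.1%, 35.9 to 46.4%), where tiles gave 0.636%. The difference between the replicates was smaller than the width of either interval. The pooled list was made from the same samples, so neither replicate list is independent of it.

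tRNA genes on X were bound somewhat more often in these lists. There 154 of 276 genes were bound (55.8%), and the autosomal minus X difference was -7.29 percentage points (95% Newcombe interval -15.1 to 0.665). The difference was -8.29 points in replicate 1 (-16.1 to -0.352) and -9.29 points in replicate 2 (-17.1 to -1.37). The pooled interval includes 0 and those of the single replicates do not. Among multi-copy genes alone the difference was -4.22 points (-13.0 to 4.73), with -5.65 points in replicate 1 (-14.6 to 3.39) and -11.9 points in replicate 2 (-20.7 to -2.81), the only one of these 3 intervals to lie below 0. Groups of neighbours were also counted once each, as bound if any of their genes was. Over all groups the autosomal minus X difference was then -17.5 points (-26.0 to -8.54), which is not a difference in shares of genes.

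The strongest members carried a range of amino acid identities. F44A2.t1 encodes tRNA-Ala on chromosome V, lies between protein-coding genes, and its end is 38 bp from the start of kvs-3, a potassium channel gene. Its pooled signal was 160.4, with 93.7 in replicate 1 and 63.0 in replicate 2. K04C2.t3, a tRNA-Lys gene in an intron of brd-1, the worm relative of the DNA repair gene BARD1, had a pooled signal of 147, with 87.7 and 59.6 in replicates 1 and 2. It lies 1704 bp from the nearest protein-coding start. Both genes were high in both replicates. K02D7.t1, a tRNA-Asp gene on chromosome IV (322632 to 322703), had a pooled signal of 136, with 98.9 in replicate 1 and 37.8 in replicate 2. It overlaps an exon of a protein-coding gene and has the highest replicate 1 value of all members, but not the highest replicate 2 value.

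The other genes of the 10 strongest peaks encode tRNA for leucine, threonine, lysine, glutamine, isoleucine and tryptophan. C43G2.t1 (tRNA-Leu, chromosome IV, 6556818 to 6556901) had a pooled signal of 125, and F52C9.t1 (tRNA-Thr, in an intron on chromosome III, 5305905 to 5305976) one of 124. F15D3.t1 (tRNA-Lys, between genes on chromosome I, 11579706 to 11579778) had 120.3. A single peak of signal 119 served the neighbours C16C8.t1 (tRNA-Lys) and C16C8.t2 (tRNA-Thr), 104 bp apart on chromosome II. T03E6.t1 (tRNA-Gln, chromosome V) reached 116, T21B4.t1 (tRNA-Ile, chromosome II, in an intron of the collagen gene col-85) 115, and sup-5 114. All of these were among the strongest candidates of both replicates. Their signal ran from 67.1 to 88.6 in replicate 1 and from 26.5 to 52.4 in replicate 2.

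sup-5 is a tRNA-Trp gene in an intron of the actin regulator fli-1 on chromosome III (8678497 to 8678568), and it is known for mutant alleles that read through amber stop codons. Of the 6 autosomal genes of this sequence, 4 were bound. Beside sup-5, with 88.5 in replicate 1 and 26.5 in replicate 2, sup-24 was bound with a pooled signal of 66.3 (42.8 and 23.3), while sup-29 was unbound, with a candidate of 23.0 in the pool, 15.2 in replicate 1 and none in replicate 2. The last pair was picked after its values were seen, since these are known genes. Inside the gene, reads of these copies cannot be told apart.

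**Figure D1:**
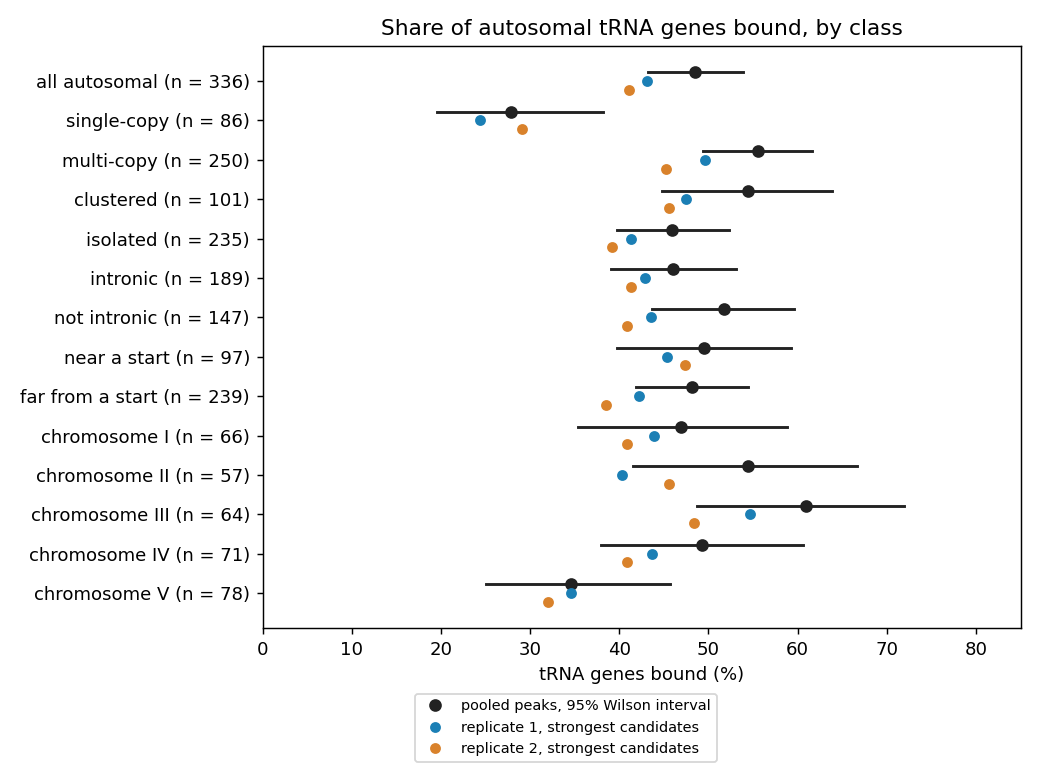
Share of autosomal tRNA genes bound (%), by copy number, surroundings and chromosome. Black points are pooled peaks with 95% Wilson intervals, blue and orange points are the strongest candidates of replicates 1 and 2, and single-copy genes sit at 27.9% in the pooled list against 55.6% for multi-copy genes.

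Genes with identical copies elsewhere were bound more often than genes of unique sequence. Of 86 single-copy members, with no other nuclear tRNA gene of the same sequence, 24 were bound (27.9%, 19.5 to 38.2%). Of 250 multi-copy members, 139 were bound (55.6%, 49.4 to 61.6%). The single-copy minus multi-copy difference was -27.7 points (-38.0 to -15.7). It was -25.2 points in replicate 1 (-35.2 to -13.4) and -16.1 points in replicate 2 (-26.7 to -4.16). With the stronger 50% of the peaks, where all shares are lower, it was -11.8 points (-17.9 to -3.54). The gap was also present on X, at -19.5 points (-32.8 to -4.93), and when each multi-copy family was counted once, at -27.2 points.

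In the pooled list the share was lowest at 1 copy and level from 4 copies upward. It was 14 of 30 genes (46.7%) at 2 to 3 nuclear copies and 15 of 27 (55.6%) at 4 to 6. At 7 to 10 copies it was 23 of 41 (56.1%), at 11 to 20 copies 56 of 97 (57.7%) and at 21 or more 31 of 55 (56.4%). All pooled intervals from 2 copies upward overlap each other. Those at 2 to 3 and at 4 to 6 copies also overlap that at 1 copy, as the plot of the share by copy number shows. Overlap alone does not mean that shares are alike, and no intervals of these differences were made. The share was also lowest at 1 copy in replicate 1 (24.4%) and replicate 2 (29.1%). From 4 copies upward it varied more than in the pool. It ran from 47.4 to 58.2% in replicate 1, and in replicate 2 from 36.6% at 7 to 10 copies to 51.5% at 11 to 20. The median pooled signal was 64.9 over the peaks at single-copy genes and 68.1 over those at multi-copy genes. Both medians cover only peaks that passed the same threshold, so they do not compare the strength of the classes as a whole.

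**Figure D2:**
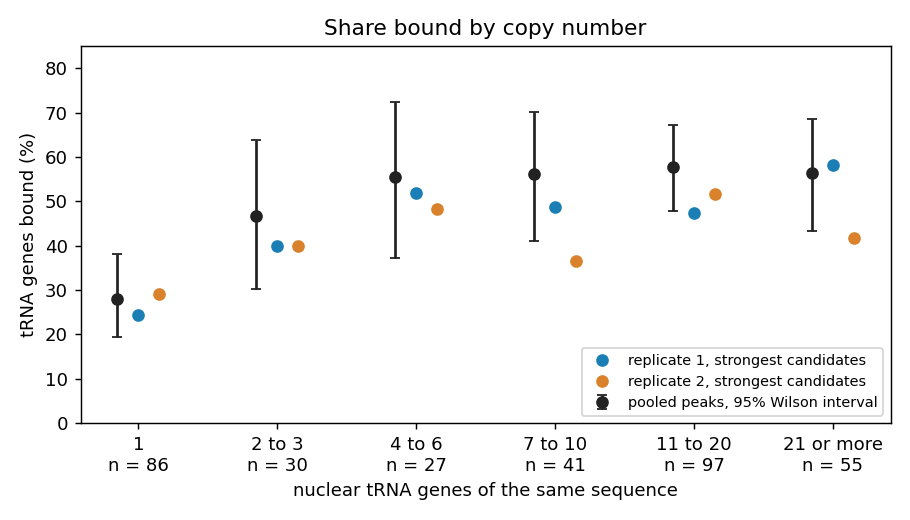
Share of autosomal tRNA genes bound (%) against the number of nuclear tRNA genes of the same sequence. Bars are 95% Wilson intervals of the pooled list, and the pooled share is 27.9% at 1 copy and between 46.7% and 57.7% at every higher copy number.

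The sources used here do not give the treatment of reads that fit several places, and its part in the copy-number result was not tested. The identity between copies ends close to the gene. All 250 multi-copy members match another tRNA gene over the whole gene, but 36 do so over the gene and 5 bp on both sides, 4 over 20 bp on both sides and 0 over 50 bp. The 36 that match over 5 bp on both sides had 13 bound (36.1%). With any pooled candidate in place of a thresholded peak, 51 of 86 single-copy genes (59.3%) and 213 of 250 multi-copy genes (85.2%) held a summit, and so did 8.74% of the autosomal tiles.

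Copies of one sequence did not all fall on the same side of the pooled threshold. The autosomal genes held 137 distinct sequences, and 43 of these had 2 or more autosomal copies. In 8 of the 43 families every autosomal copy was bound, in 4 none was, and 31 families, with 207 genes, held both bound and unbound copies. In the largest family, tRNA-Gly, 8 of 18 autosomal copies were bound. In the next, tRNA-Lys, 13 of 15 were bound, and in the third, tRNA-Asn, 2 of 13. Among the strongest candidates of replicates 1 and 2, the counts were 8 and 7 for tRNA-Gly, 12 and 9 for tRNA-Lys, and 3 and 1 for tRNA-Asn. How far calls close to the threshold add to the mixed families was not tested.

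The lysine family of K04C2.t3 held copies from a pooled signal of 147 down to no pooled candidate. After K04C2.t3, its bound copies were T23F1.t1 (pooled signal 104, replicates 67.5 and 42.8), C09B9.t1 (94.1, replicates 43.1 and 50.2), F49C5.t4 (72.2, replicates 35.9 and 37.5) and Y70C5A.t1 (52.9, replicates 42.4 and 11.2). The peak at T23F1.t1 has its summit between that gene and its neighbour T23F1.t2, a tRNA-Pro gene, and was counted for both. The unbound copies had pooled candidates of 44.4 at F18C5.t1, 41.4 at ZK994.t2 and 17.3 at ZK994.t1, and none at W07G4.t1. None of these 4 unbound copies held a replicate 2 candidate, and in replicate 1 they had 14.5, 26.8, 12.2 and 8.88. In replicate 1 the bound copies of this family lay above the unbound ones, but the bound call was itself made partly from replicate 1. Over all members the classes overlapped there, with bound genes down to 8.66 and unbound genes up to 41.7. Upstream of the gene, the other bound copies share 12 to 24 of 50 bases with K04C2.t3 and the unbound ones 12 to 19.

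Within the 31 mixed families, the surroundings of the 110 bound and 97 unbound copies were not separated by their error. Clustered genes made up 40.9% of bound and 36.1% of unbound copies (difference 4.83 points, -8.39 to 17.7), and intronic genes 57.3% and 53.6% (3.66 points, -9.72 to 16.9). Genes near a protein-coding start made up 29.1% and 28.9% (0.225 points, -12.1 to 12.4). Genes in the central of 3 equal zones of the chromosome made up 27.3% and 34.0% (-6.75 points, -19.1 to 5.73).

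Clustered and isolated genes were bound at shares that their error does not separate. A gene was clustered if another nuclear tRNA gene lay within 1000 bp. Of 101 clustered members, 55 were bound (54.5%), and of 235 isolated members, 108 (46.0%), a difference of 8.50 points (-3.11 to 19.8). It was 6.25 points in replicate 1 and 6.40 in replicate 2, with intervals that include 0. With no extension of the gene the direction turned, at -8.15 points (-17.7 to 2.60). Median signal was 67.4 over peaks at clustered genes and 67.5 over peaks at isolated genes.

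Most pairs of neighbours that were both bound shared 1 peak. Of 39 pairs, 17 had both genes bound, 10 had 1 and 12 had none, and in 10 of the 17 a single peak was counted for both genes. In the 29 pairs that shared no peak, 24 of 58 genes were bound, and both genes were bound in 7 pairs. All 5 groups of 3 genes were partly bound. The 2 groups of 4 genes lay at opposite ends. On chromosome IV (16398384 to 16400967), Y65A5A.t1 and Y65A5A.t2 (tRNA-Ala), Y65A5A.t3 (tRNA-Val) and Y65A5A.t4 (tRNA-His) were all bound, each through its own peak, with pooled signals of 76.4, 90.9, 55.5 and 59.7. On chromosome I (9327424 to 9328701), none of the 4 tRNA-Gly copies C12C8.t2 to C12C8.t5 was bound, although C12C8.t4 had a pooled candidate of 41.4 and C12C8.t2 one of 29.3.

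The shares bound inside and outside introns were not separated by their error. A gene was intronic if it lay whole inside a protein-coding gene and overlapped no exon of it, on either strand. Of 189 intronic members, 87 were bound (46.0%), and of the 147 others, 76 (51.7%), a difference of -5.67 points (-16.2 to 5.05). The difference was -0.680 points in replicate 1 and 0.454 in replicate 2, so its direction was not held. Where the host gene lay on the same strand, 49 of 112 genes were bound (43.8%), and on the other strand 38 of 77 (49.4%).

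The shares bound near and far from a protein-coding start were not separated by their error. Of 97 members within 500 bp of the first base of a protein-coding transcript, 48 were bound (49.5%), and of 239 farther away, 115 (48.1%). The difference was 1.37 points (-10.2 to 13.0), 3.10 points in replicate 1 (-8.35 to 14.7) and 8.93 points in replicate 2 (-2.60 to 20.4). With the stronger 50% of the peaks it was 8.48 points (0.145 to 18.2), and with nearness set at 200 bp it was -7.81 points (-24.6 to 10.9). Of the 153 peaks, 42 also had a summit within 500 bp of a start, at a median distance of 301 bp from it, and 29 of these summits lay inside the tRNA gene. All were chosen for a summit at the tRNA gene, so these distances describe them and do not tell which feature a peak belongs to. Their median signal was 73.6, against 64.2 for the 111 peaks farther from a start.

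The share bound was lowest on chromosome V, with 27 of 78 genes (34.6%, 25.0 to 45.7%), and highest on chromosome III, with 39 of 64 (60.9%, 48.7 to 71.9%). Both chromosomes were picked here for their shares, and no interval of the difference between them was made. Intervals that overlap can still belong to shares that differ. In the pooled list the intervals of chromosomes V and III do not overlap. In the single replicates they do: chromosome V was lowest in replicate 1 (34.6%, 25.0 to 45.7%) and in replicate 2 (32.1%, 22.7 to 43.0%), and chromosome III highest (54.7%, 42.6 to 66.3%, and 48.4%, 36.6 to 60.4%). The other 3 chromosomes lay between 47.0% and 54.4%. On chromosome V, 27 of the 78 genes were also single-copy, against 12 to 17 on each of the others. Among multi-copy genes alone, 20 of 51 were bound on chromosome V (39.2%, 27.0 to 52.9%) and 34 of 50 on chromosome III (68.0%, 54.2 to 79.2%). These intervals overlap in replicate 1 (28.8 to 54.8% and 48.2 to 74.1%) and in replicate 2 (20.3 to 45.0% and 40.4 to 67.0%), where chromosome II (55.0%) was above chromosome III (54.0%). With each chromosome cut into 3 equal zones, the central zone had 51 of 110 genes bound (46.4%) and the other zones 112 of 226 (49.6%). The central minus other difference was -9.03 points for multi-copy genes (-22.0 to 4.20; replicate 1, -13.5, from -26.1 to -0.0872; replicate 2, -3.39, from -16.2 to 9.91). For single-copy genes it was 18.6 points (-0.797 to 37.7), with 14.5 in replicate 1 and 11.8 in replicate 2, both with intervals that include 0.

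By amino acid, the shares ran from every gene to few. All 6 tRNA-Cys genes were bound (61.0 to 100%), with 6 in replicate 1 and 5 in replicate 2. tRNA-Thr had 15 of 20 bound (75.0%, 53.1 to 88.8%), tRNA-Lys 18 of 28 (64.3%) and tRNA-Ala 13 of 21 (61.9%). At the low end, tRNA-Asn had 2 of 14 (14.3%, 4.01 to 39.9%), and tRNA-His and tRNA-Tyr 3 of 11 each (27.3%). The intervals of tRNA-Cys, tRNA-Thr, tRNA-Lys and tRNA-Ala lie above that of tRNA-Asn, while most isotypes overlap each other. For tRNA-Asn, 3 genes were bound in replicate 1 and 1 in replicate 2, and on X 3 of its 6 genes were bound. Some isotypes are few independent sequences: the 14 tRNA-Asn genes and the 6 tRNA-Cys genes hold 2 sequences each, while the 11 tRNA-His genes hold 7 and the 11 tRNA-Tyr genes 9.

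**Figure D3:**
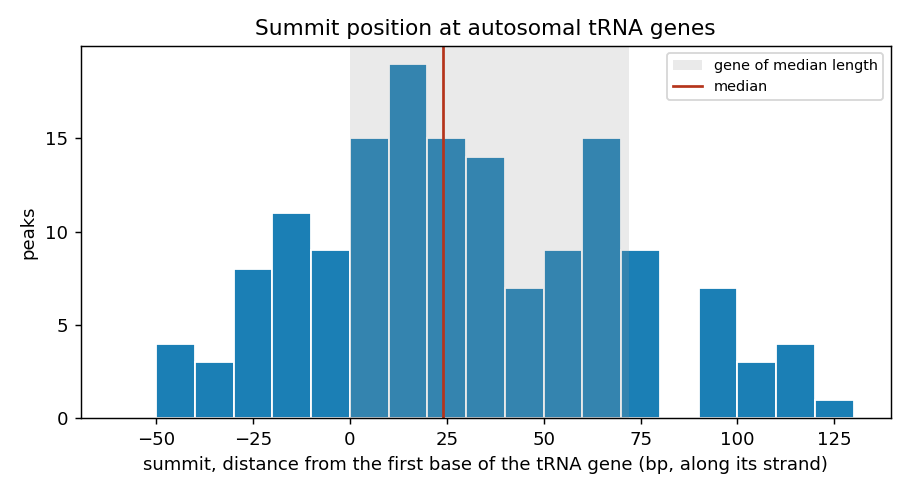
Number of the 153 peaks at autosomal tRNA genes by the distance of the summit from the first base of the gene, in bp along its strand, in bins of 10 bp. The grey band is a gene of the median length of 72 bp, the red line is the median of 24 bp, and 99 summits lie inside the gene.

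Within the 100 bp that the rule allows on both sides, most summits lay inside the tRNA gene. Of the 153 summits, 99 lay inside the gene (64.7%, 56.9 to 71.8%), 35 upstream and 19 downstream. The median was 24 bp from the first base of the gene (quartiles 4 and 60 bp), and the range was from -47 to 120 bp. Every one of these summits lay within 50 bp of its nearest tRNA gene, and no autosomal summit had its nearest tRNA gene between 50 and 200 bp away. A summit counted for 2 neighbours can lie farther from the other gene. With an extension of 50 bp 46.4% of members were bound, against 48.5% with 100 bp. At X-linked tRNA genes the median was 23 bp. In the histogram of summit positions, the fullest bin, with 19 summits, begins 10 bp into the gene, and the bins that begin at 0, 20 and 60 bp hold 15 each.

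The internal B box string and the terminal run of T were common in bound and unbound genes alike. The B box string GTTCGANNC, searched on the gene strand, was held by 121 of 163 bound genes (74.2%) and 120 of 173 unbound genes (69.4%), a difference of 4.87 points (-4.77 to 14.3), and by 72.1% of all 612 nuclear tRNA genes. The wider GTTCNANNC, chosen after seeing the data, was held by 97.5% of bound and 92.5% of unbound genes, a difference of 5.06 points (0.264 to 10.2), and by 95.9% of all 612. Of the 17 members without it, 4 were bound. The A box string TGGCNNAGT was held by 11.0% of bound and 11.6% of unbound genes. It is a narrow form that misses, for example, the TAGCTCAGT of K04C2.t3, and no wider form was searched. These shares therefore do not count the genes that have an A box. TTTT within 30 bp after the gene was held by 99.4% and 98.3%. The median GC content of the 50 bases upstream was 46% at bound genes (quartiles 40 and 50%) and 42% at unbound genes (36 and 52%).

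E2F strings were rarer at these peaks than at other autosomal peaks as a whole, and the share was low at other short RNA genes too. One of TTTCCCGC, TTTCGCGC, TTTGCCGC or TTTGGCGC, on either strand within 100 bp of the summit, was present at 14 of 153 peaks (9.15%, 5.53 to 14.8%) and at 336 of the 1782 other autosomal peaks (18.9%, 17.1 to 20.7%). The difference was -9.70 points (-13.8 to -3.82). Against the 494 other peaks over 500 bp from a start, of which 16.2% held one, it was -7.04 points (-12.1 to -0.678). With the stronger 50% of the peaks the difference from all other autosomal peaks was -19.0 points (-24.3 to -7.25). Peaks at X-linked tRNA genes held a string in 5.44% (autosomal minus X 3.71 points, -2.41 to 9.93), and autosomal peaks at snoRNA genes in 6.25%. TTTGCCGC was found at 11 of the 153 peaks (7.19%) and at 2.53% of the other peaks, while TTTCGCGC and TTTGGCGC were found at 0 of the 153 peaks and at 8.36% and 3.87% of the others. At 7 of the 14 peaks the string ran over the edge of a tRNA-Ile gene, as at T21B4.t1, and at the other 7 it lay outside every tRNA gene. No autosomal tRNA gene held such a string wholly inside.

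**Figure D4:**
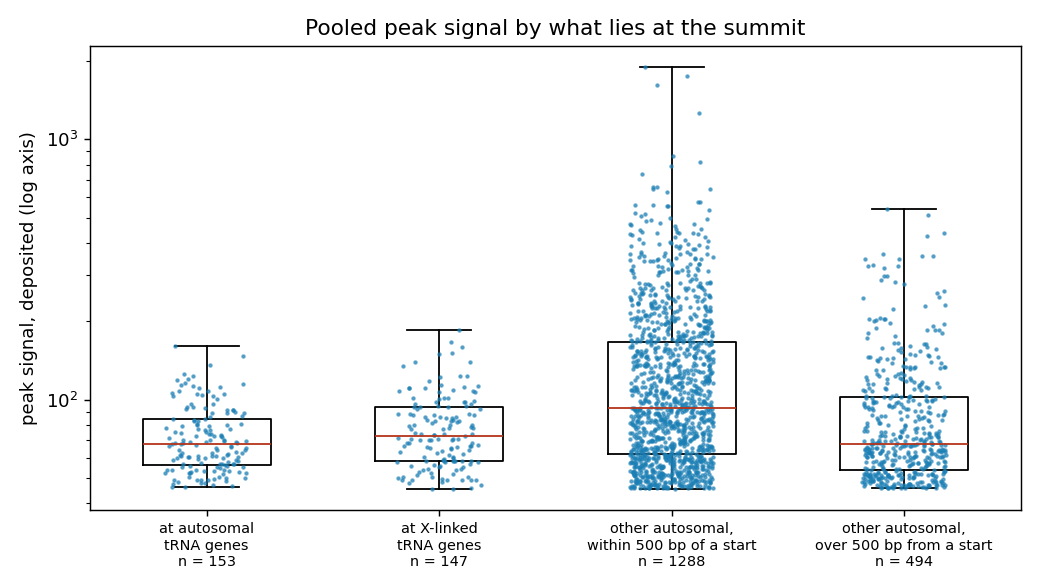
Deposited signal of pooled peaks on a log axis, by what lies at the summit, with 1 point per peak. Boxes give the quartiles, red lines the medians and whiskers the full range, and peaks at autosomal tRNA genes stop at 160.4 while peaks near protein-coding starts reach 1895.

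Peaks at autosomal tRNA genes were of moderate strength and narrow in range. Their signal had a median of 67.4 (quartiles 56.0 and 84.0) and ran from 46.1 to 160.4, and 390 of the 2179 nuclear peaks were stronger than the strongest of them. Other autosomal peaks had a median of 84.7, a difference of -0.33 in median log2 signal, which was -0.43 in replicate 1 and -0.27 in replicate 2. The other autosomal peaks over 500 bp from a start had a median of 67.6 but ran up to 541. Peaks at X-linked tRNA genes had a median of 72.3, and the 64 autosomal peaks at snoRNA genes one of 113. In the plot of signal by summit class, the medians of the tRNA peaks and of the far peaks lie at nearly the same height.

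The bound genes come from a list that keeps peaks on which the replicates agree, so their counts by replicate are a description. Of the 163 bound genes, 99 held a summit of the strongest candidates in both replicates, 35 in replicate 1 alone, 22 in replicate 2 alone and 7 in neither. Of the 173 unbound genes, 11 did so in replicate 1 alone, 17 in replicate 2 alone and 145 in neither. By peak, 96 of 153 overlapped a strongest candidate in both replicates (62.7%, 54.9 to 70.0%). Among other autosomal peaks 70.6% did so, a difference of -7.85 points (-16.0 to -0.275). Among those over 500 bp from a start 60.5% did so, a difference of 2.22 points (-6.72 to 10.7). The median candidate rank of the bound genes, out of 30000 candidates per list, was 1343 among pooled candidates, 1451 for replicate 1 and 1346 for replicate 2.

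Signal at a member was higher in replicate 1 than in replicate 2, by a median ratio of 1.49 over the 224 members with a candidate in both, on a scale that may differ between lists. Across those 224 genes, which share libraries and partly share sequence, log2 signal correlated with Pearson's r of 0.439 and Spearman's rho of 0.468. Among the 157 bound genes, whose range is cut by the threshold, r was 0.163 and rho 0.269.

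**Figure D5:**
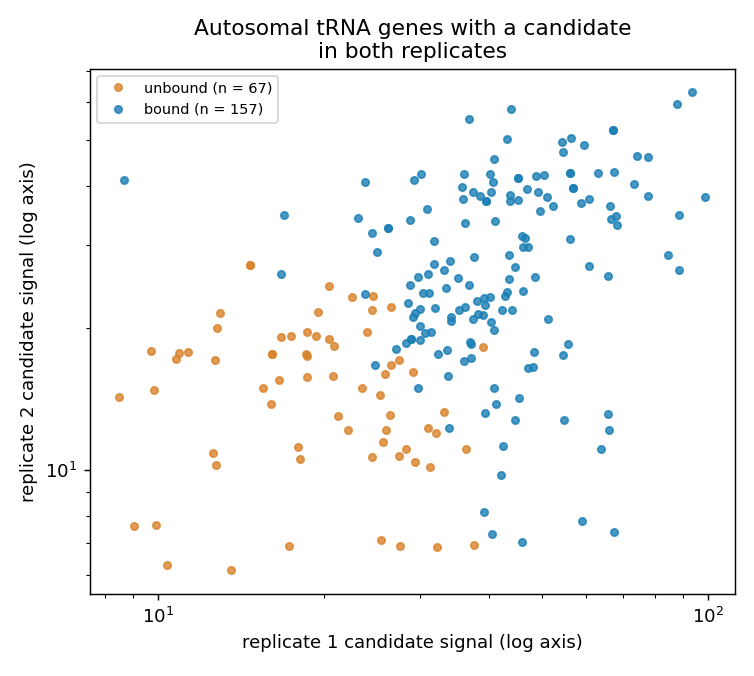
Candidate signal in replicate 1 against replicate 2, both on log axes, for the 224 autosomal tRNA genes with a candidate in both, in blue if bound (157) and in orange if unbound (67). Bound genes lie toward higher values in both replicates, as their call comes from a list made from both, and some genes are high in 1 replicate and low in the other.

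Of all 336 members, 264 held a summit of some pooled candidate and 72 held none, so that 101 of the 173 unbound genes held a candidate below the threshold. Among autosomal tiles of the members' median length, 8.74% held a pooled candidate. The median pooled signal was 32.3 at those 101 unbound genes, against 67.4 at bound genes, 2 sets that the threshold itself divides. The weakest bound members were C06B8.t2 (tRNA-Tyr, signal 46.1), C14B9.t1 (tRNA-Met, 46.4) and ZK994.t3 (tRNA-Thr, 46.8), none of which was among the strongest candidates of either replicate. The unbound members with the highest pooled candidates were F36D4.t2 (tRNA-Thr, 45.5), Y54G2A.t2 (tRNA-Asp, 45.3) and T22F3.t1 (tRNA-Pro, 45.2), and each of these was among the strongest candidates of replicate 2 and not of replicate 1. The lowest signal of any nuclear peak in the thresholded list was 45.6.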

How the data were processed

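Peak lists on build ce11 were used: 30000 candidates for each replicate and for the pool, and 1 optimal IDR-thresholded list of 2207 peaks, per the descriptions deposited with the files. The signal value of each peak was computed by the authors and is used as deposited; its scale is not stated. Neither the aligner nor the peak caller nor the IDR threshold is named in the sources used here. The 28 mitochondrial peaks and the ce10 lists were left out. Gene models came from Ensembl release 115, and sequences and isotypes from RefSeq (WBcel235), to which all 612 tRNA genes matched by identifier and coordinates.

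Summits were assigned with Python 3.11.15, numpy 2.4.6, pandas 2.3.3 and scipy 1.17.1, and figures drawn with matplotlib 3.10.9. Starts were the first bases of protein-coding transcripts, for genes of protein-coding biotype. Shares have 95% Wilson intervals and differences 95% Newcombe intervals, with no p-values, since 1 group was measured. Assignment and intervals were tested on simulated data.

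Members, lists and settings were chosen with earlier results of these data known. Genes named by rule were those of the 10 strongest and 3 weakest peaks, the 2 strongest of each class, the 3 unbound genes with the highest pooled candidate, the 2 largest groups of neighbours, the 3 largest families and up to 3 mixed families of highest signal. The strings within E2F matches, chromosome positions, flank identity and the comparison inside mixed families were added after seeing the data.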

Additional observations from a re-analysis of the deposited data

How the results depend on the processing

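The lower share of single-copy genes kept its direction, with an interval below 0, under every alternative run, between -33.9 and -11.8 points. The value of -33.9 is for groups of neighbours counted once, each called bound if any of its genes was. With no extension 29.5% of members were bound, and with the stronger 50% of the peaks 14.6%. Single replicates gave 41.1 to 43.2%. The autosomal minus X difference had an interval below 0 with an extension of 200 bp (-9.65) and with any peak base (-9.36). The same held for the stronger 50% of the peaks (-7.88) and single replicates (-9.29 to -8.29). It also held for groups of neighbours counted once in that way (-17.5). Clustered minus isolated was -8.15 with no extension and 12.5, with an interval above 0, for any peak base. Intronic minus other was 0.378 with no extension and -0.680 to 0.454 in single replicates. Near minus far was 8.48, with an interval above 0, for the stronger 50% of the peaks and -7.81 for nearness within 200 bp. The GTTCGANNC difference was -5.13 for the stronger 50% of the peaks, -6.13 to -1.22 in single replicates and 5.06 for GTTCNANNC, added after seeing the data. The log2 signal difference was -0.51 for the stronger 50% of the peaks and -0.00407 against other peaks over 500 bp from a start. Among the stronger 50% of the peaks, 97.7% were in both replicates' strongest candidates. The median summit offset was 18 to 24 bp in single replicates. The causes were not tested. Of 88 alternative values, 64 counted as unchanged. For a difference in shares this meant the same direction and the same side of 0 for its interval. For other quantities it meant a value inside the main interval or within the standard deviation between replicates. Of the rest, 9 differences kept direction and had an interval that no longer included 0, 7 turned direction, and 8 values moved. Copies identical over 50 bp on both sides gave no value, since no autosomal member has one. No paired analysis was possible because the samples form 1 group. Unknown depth, 2 replicates and shared sequences limit the precision.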
